A study of Mus musculus with 59 samples.

Results

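The Hedgehog receptors, binding proteins and Gli factors were followed here through an indicator cell assay, in which cultured motor neurons report on mouse serum through their gene expression. The set holds 9 genes of the 19613 in the expression table, chosen by symbol. They are the binding proteins and receptors Hhip, Ptch1, Smo, Gas1, Cdon and Boc and the transcription factors Gli1, Gli2 and Gli3. The set was chosen because Hedgehog binding genes were seen to be lower with carrier serum, and the question put to the data was whether Gli targets follow. The serum difference of these 9 genes is therefore a description. No p is given for it, and the number of members past the threshold, set beside that of all genes, supports nothing. The 95% intervals printed for members take no account of that choice or of the 19613 genes, and are not read as tests.

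Hedgehog ligands bind Ptch1, which releases Smo to signal from the primary cilium. In the absence of ligand Gli3, and in part Gli2, are processed into repressors. With ligand, full-length Gli2 acts as an activator and Gli1 is induced and amplifies the response. Gas1, Cdon and Boc are coreceptors that help Ptch1 to bind ligand, whereas Hhip and Ptch1 sequester it. Ptch1, Hhip and Gli1 are classical targets of the pathway, so their RNA is commonly read as its output, while Gas1, Cdon and Boc are known to be repressed by it. In the ventral neural tube the signal sets progenitor domains, among them the Olig2 domain from which motor neurons arise, and the cultures were directed to that fate with retinoic acid and the small-molecule Hedgehog agonist Hh-Ag1.3.

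Embryoid bodies were made from HBG3 mouse embryonic stem cells, a line in which the Hb9 (Mnx1) promoter drives enhanced green fluorescent protein in motor neurons. They were exposed for 24 h to serum of pre-symptomatic male mice that were hemizygous carriers of a mutant human SOD1 transgene, a model of amyotrophic lateral sclerosis (29 arrays), or to serum of their non-carrier male littermates (30 arrays). All donors were F1 progeny of C57BL/6 and SJL. The serum donors were 9 weeks old in 8 runs and 10 weeks old in the run titled 10week. The cells themselves carried no SOD1 transgene in either group, and every culture on the arrays had received the agonist before the serum. No array came from a culture without agonist or without serum. Embryoid bodies hold motor neurons together with progenitors and other cells, so fewer cells of a type and less RNA per cell cannot be told apart in these values.

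RNA was measured on exon arrays, and each value is the log2 of the deposited intensity of a gene on 1 array. The titles put the arrays in 9 runs of 4 to 11 arrays, each with both sera. Run C, with 11 arrays, was larger than the assay's stated batch and so holds more than 1 batch. Array medians lay between 151 and 183 on the intensity scale. The array least like its run was carrier array 23 of run E, with a mean r of 0.979 to the other arrays of its run over all genes, and among non-carrier arrays it was array 4 of the run titled motorneuron, at 0.985. The means of 8 motor neuron markers lay between 8.62 and 10.51 on the log2 intensity scale, and the mean of the 6 pluripotency genes over arrays was 6.06 with carrier and 6.03 with non-carrier serum. Intensities of different genes are not on a common scale and no background level was used, so the presence of a cell type was not tested.

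Hhip, the membrane-bound decoy that binds Hedgehog ligands, was the member that differed most between the sera. Its log2 intensity was at lowest 6.63, at the median 7.26 and at highest 8.66 in the 29 carrier arrays. In the 30 non-carrier arrays the lowest, median and highest were 6.61, 7.43 and 8.70. The groups overlapped almost entirely when runs were pooled, because runs lay far apart. Within runs the carrier mean was lower in 8 of 9, and in 5 of these (A, B, D, F and 10week) every carrier array lay below every non-carrier array. Over all genes, 5.45% were lower in at least 8 of 9 runs, and 0.882% lay wholly below in at least 5. The limma estimate with the run as a block was -0.24 on the log2 scale (SE 0.063, 95% interval -0.36 to -0.11), a change of -15.2% on the intensity scale and 1.11 times the SD of 0.214 within run and serum.

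The runs differed in size and, once, in direction. In run D the 4 non-carrier arrays had log2 intensities of 7.61, 7.77, 7.87 and 7.61, and the 3 carrier arrays had 7.20, 7.32 and 7.37. In run B the carrier arrays lay close together, between 6.90 and 7.05, and the non-carrier arrays were spread from 7.16 to 8.17, so the run's difference of -0.65 rested in part on 1 high array. In run C the sign turned, with a mean of 7.22 in 6 carrier arrays and 6.98 in 5 non-carrier arrays, and the arrays overlapped. Without run C the estimate for Hhip was -0.35, and without run B it was -0.19.

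Ptch1 is the receptor that holds Smo inactive and is itself induced by the signal. Its log2 intensity in the carrier arrays was at lowest 10.46, at the median 10.85 and at highest 11.17, and in the non-carrier arrays 10.48, 10.98 and 11.22. The carrier mean was lower in 8 of 9 runs, with a difference of 0.02 in run C, and in 5 runs (A, B, D, F and 10week, as for Hhip) the arrays did not overlap. The difference was -0.10 on the log2 scale (SE 0.027, 95% interval -0.15 to -0.042), or -6.49% on the intensity scale, which is 0.924 of the SD within run and serum. In run F, for example, the carrier arrays had log2 intensities of 10.92, 10.82 and 10.85 and the non-carrier arrays 11.03, 11.01 and 11.05. On the log2 scale the difference of Ptch1 was smaller than that of Hhip, and relative to the spread it was nearly as large.

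**Figure D1:**
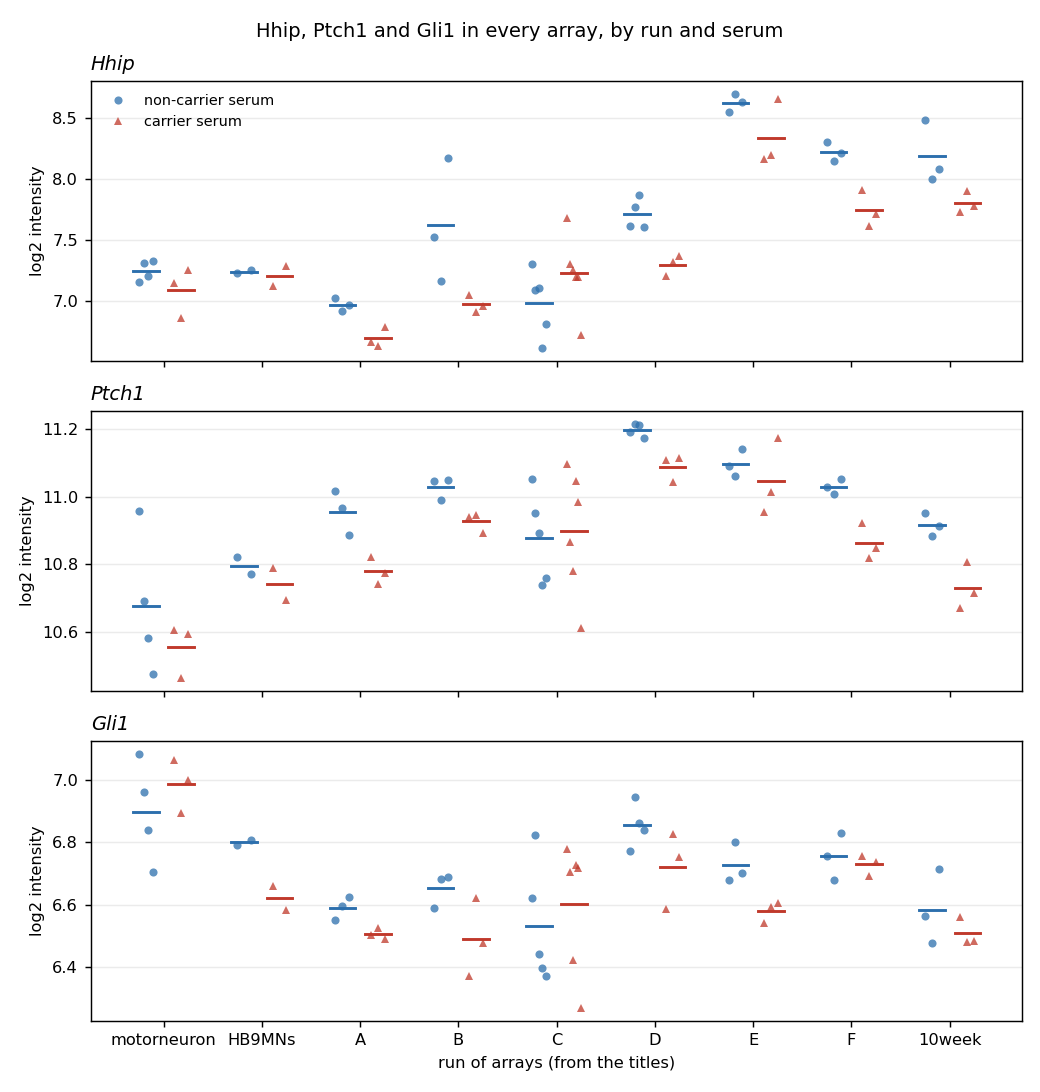
Log2 intensity (y axis) of Hhip, Ptch1 and Gli1 on each of the 59 arrays, by run (x axis), with non-carrier serum as circles, carrier serum as triangles and the mean of each run and serum as a line. Hhip runs from 6.61 to 8.70 over the arrays, and in runs A, B, D, F and 10week all carrier arrays of Hhip and of Ptch1 lie below the non-carrier arrays.

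The upstream sequences of Hhip and Ptch1, the members with the largest serum differences, are shown because Gli factors are known to act on both genes. RefSeq (GRCm38.p6) windows were held for 7 of the 9 members. The 250 bases before the start site are printed 5′ to 3′ on the strand of the gene, at chr8:80058009-80058258 (minus strand) for Hhip and at chr13:63565736-63565985 (minus strand) for Ptch1. Capitals mark a motif, TGACGTCA, that is described with the genes most like Hhip.
Hhip: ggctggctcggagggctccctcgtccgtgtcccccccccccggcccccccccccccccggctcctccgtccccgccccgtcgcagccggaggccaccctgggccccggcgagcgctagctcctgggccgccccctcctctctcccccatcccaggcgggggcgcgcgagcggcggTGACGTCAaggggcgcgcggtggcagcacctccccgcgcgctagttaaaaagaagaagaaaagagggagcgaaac
Ptch1: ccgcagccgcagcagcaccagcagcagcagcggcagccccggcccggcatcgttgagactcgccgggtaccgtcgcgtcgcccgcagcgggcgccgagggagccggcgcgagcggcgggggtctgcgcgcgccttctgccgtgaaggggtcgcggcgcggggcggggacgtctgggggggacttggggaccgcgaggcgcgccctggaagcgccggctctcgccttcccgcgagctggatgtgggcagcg

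The Gli binding motif GACCACCCA was searched on both strands. It was found in 0 of the 7 member windows and in 0.225% of the 32851 windows held, and with 1 letter allowed to differ in 0 of 7 and in 5.79%. No match says only that these letters are not in this window.

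Gli1, the amplifying factor and the most used readout of the pathway, differed by less. Its log2 intensity was 6.27, 6.61 and 7.07 at the lowest, median and highest carrier array and 6.37, 6.70 and 7.09 in the non-carrier arrays. It was lower with carrier serum in 7 of 9 runs, and higher in the run titled motorneuron and in run C. The estimate was -0.06 on the log2 scale (SE 0.032, 95% interval -0.12 to 0.0089), or 0.456 of the SD within run and serum. In 3 runs (HB9MNs, with 2 arrays of each serum, A and E) all carrier arrays lay below the non-carrier arrays. The share of all genes with 3 such runs was not computed, so nothing is read from this count. Gli2, the main activator, had an almost equal difference of -0.05 (SE 0.039) and was lower in 7 runs, but its arrays overlapped in every run. Gli3, the main repressor, had a difference of 0.01 (SE 0.030), with run differences from -0.10 in run C to 0.17 in run A.

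The remaining receptor and the coreceptors had estimates from -0.04 to 0.03 on the log2 scale. Smo, the transducer that Ptch1 restrains, had an estimate of 0.03 (SE 0.023), with a higher mean in 8 of 9 runs. Its arrays did not overlap in 2 of them (HB9MNs and D), a count for which the share over all genes was not computed either. Cdon had -0.04 (SE 0.017) and Boc -0.04 (SE 0.022), on the log2 scale. Cdon varied little, with an SD of 0.058 within run and serum, so that its difference (95% interval -0.069 to -0.0016) was 0.604 of that SD, beside 0.456 for Gli1. Its mean was lower in 7 runs. Gas1 had -0.02 (SE 0.049), a value whose sign rested on 1 array. Carrier array 23 of run E, the array least like its run, had a Gas1 log2 intensity of 6.60, against 7.75 and 7.66 in the other carrier arrays of the run, and without that array the Gas1 estimate was 0.02 (SE 0.030). Boc had a lower mean in 5 of 9 runs, so its run differences were mixed in sign.

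**Figure D2:**
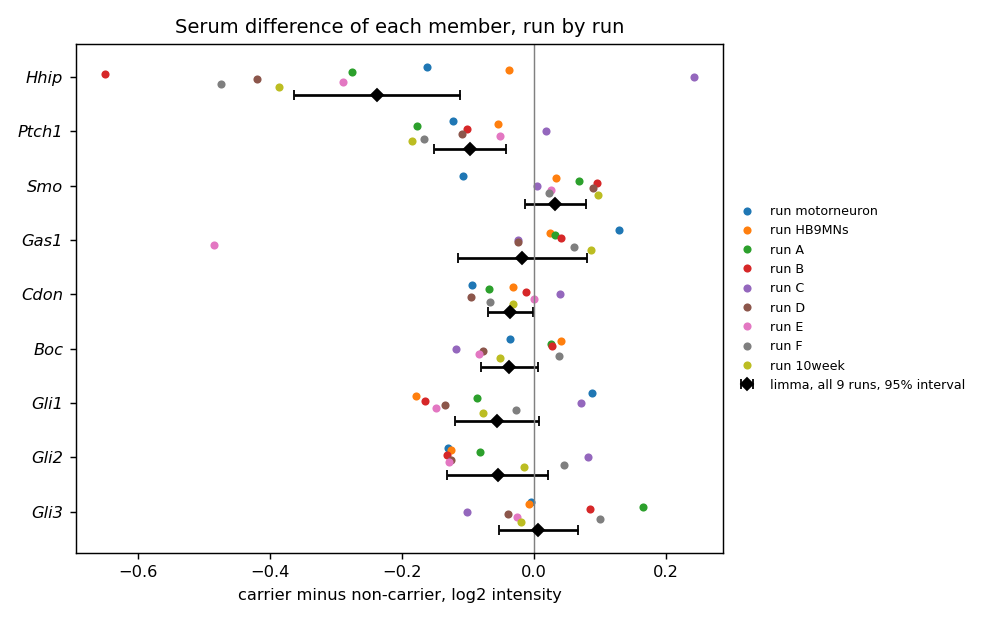
Carrier minus non-carrier difference in log2 intensity (x axis) of each member (y axis), with 1 dot per run and a diamond for the limma estimate over all 9 runs with its 95% interval. The estimates run from -0.24 for Hhip to 0.03 for Smo, and run C lies to the right of 0 for Hhip, Ptch1, Gli1 and Gli2.

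Across all genes, 2.33% of 19613 passed an adjusted p below 0.05 between the sera in limma (1.65% lower, 0.683% higher). Of the 9 members 2 were past that level. The members had been chosen on this contrast, so nothing is read from that count. It was 0 when any of the runs A, B, D, E, F and 10week was left out, when 0.54% to 1.38% of all genes passed. Without run C it was 3, when 8.16% of all genes passed. The median difference of the 9 members was -0.04, with 7 of 9 lower, beside 0.02 and 38.9% lower over all genes. Hhip stood at the low end of the whole table, with only 0.178% of genes having a lower estimate, against 2.70% for Ptch1, 9.51% for Gli1 and 44.1% for Gli3.

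The other genes of the pathway are no members and were tested, in lists drawn up with earlier results of these data known. Of 68 measured genes in 5 lists (ligands and their release, cytosol and cilium, Gli targets, ventral neural tube, dorsal and class I genes), 1 passed an adjusted p below 0.05 in limma over all genes, beside 2.33% of all genes. This was Arrb2, a beta-arrestin that helps to carry Smo to the cilium but also serves many other receptors. Its log2 intensity averaged 8.63 with carrier and 8.78 with non-carrier serum, and it fell by 0.15 on the log2 scale (SE 0.042, adjusted p from limma 0.0396), with a lower mean in 9 of 9 runs. The call was lost with no block for the run, with quantile normalization (adjusted p 0.0560), without carrier array 23 (adjusted p 0.0584, an alternative added after the values were seen), without the least correlated array of each serum (adjusted p 0.0525), and in 6 of 9 fits that left out a run.

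Genes that act beside Ptch1 and Smo in the cilium or the cytosol numbered 18, of which 9 were lower and 9 higher, with a median difference of 0.01. Stk36, a kinase related to the fly pathway's Fused, had a difference of 0.06 (SE 0.019, adjusted p from limma 0.0533). Sufu, the inhibitor that holds Gli proteins in the cytosol, had -0.03 (SE 0.024, adjusted p 0.525). Among the 9 measured genes of the list on ligands, their release and their binding, 0 passed in limma and 2 had an unadjusted p below 0.05, as did 20.7% of all genes. Shh itself had 0.11 (SE 0.049, adjusted p from limma 0.193), and Scube2, which helps to release ligand, had 0.08 (SE 0.029, adjusted p 0.126).

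None of the genes known as Gli targets outside the set passed the test. Of 20 general targets and 11 genes of the ventral neural tube (31 in all), 0 passed an adjusted p below 0.05 in limma, and 5 had an unadjusted p below 0.05, beside 20.7% of all genes. Of the 31, 14 were lower and 17 higher, with a median difference of 0.0038 on the log2 scale, beside 0.02 over all genes. The 2 largest differences among the general targets were those of Foxf1, a mesenchymal target (0.14, SE 0.079, adjusted p from limma 0.303), and Osr2 (0.09, SE 0.049, adjusted p 0.269). Neither was among the 2 general targets with an unadjusted p below 0.05 in limma. Of those 2, Sfrp1 was higher (0.08, SE 0.027, adjusted p from limma 0.0882), with a higher mean in 8 of 9 runs, and the other was lower. With the study's 4 batch genes (Olig2, Mnx1, Isl1, Lhx3) added to the fit as covariates, 10 of 30 passed, when 31.2% of all genes did. Of the cell cycle targets, Ccnd1 had 0.06 (SE 0.038), with a higher mean in 7 of 9 runs. Ccnd2 had 0.0038 (SE 0.025) and Mycn -0.03 (SE 0.027).

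Of the 11 genes of the ventral neural tube list 6 were lower and 5 higher, and 0 passed the test. Olig2, which marks motor neuron progenitors, averaged 8.81 with carrier and 8.90 with non-carrier serum on the log2 intensity scale, a difference of -0.09 (SE 0.029, adjusted p from limma 0.0936) that was lower in 7 of 9 runs. Lmx1b had 0.09 (SE 0.039, adjusted p 0.170). Nkx6.1, another ventral gene of the list, had -0.08 (SE 0.032, adjusted p 0.138), lower in 8 runs. The ventral factor Nkx2.2 had -0.06 (SE 0.042, adjusted p 0.400). The floor plate gene Foxa2, which needs the highest signal, had 0.05 (SE 0.038, adjusted p 0.434). Of 11 genes of the dorsal neural tube and the class I factors that Hedgehog represses, 10 were higher and 1 lower with a median of 0.05, beside 61.1% higher over all genes, and 0 passed the test. Of these 11 genes 9 were dimmer than the median gene. The mesenchyme or endothelium, red blood cell, pluripotency and astrocyte lists also held mostly dim genes. Higher were 6 of 7 mesenchyme or endothelium, 4 of 4 red blood cell, 4 of 6 pluripotency and 3 of 5 astrocyte genes. In that order the medians of these lists were 0.064, 0.019, 0.0071 and 0.022. The progenitor and motor neuron lists held 0 genes dimmer than the median gene. Of these, 6 of 8 progenitor and 4 of 8 motor neuron genes were higher, with medians of 0.0070 and 0.0015. Over all genes the median difference went from 0.02 to -0.0096 when the dimmer genes were left out. The part of intensity in these differences was not tested. Among the dorsal and class I genes the 2 largest differences were those of Pax7 (0.08, SE 0.039, adjusted p 0.213) and Wnt3a (0.08, SE 0.047, adjusted p 0.331). The lower one was Pax6 (-0.05, SE 0.028, adjusted p 0.339).

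Markers of the cell types in the culture were read beside these values. Of 8 motor neuron markers, 1 passed, the choline transporter Slc5a7, which rose by 0.15 (SE 0.042, adjusted p from limma 0.0410). Lhx3 had -0.09 (SE 0.030, adjusted p 0.105), Isl1 0.05 (SE 0.019, adjusted p 0.114) and Mnx1 -0.03 (SE 0.037, adjusted p 0.588). The mean of the 8 markers ranged from 9.18 to 9.60 over carrier arrays and from 9.15 to 9.56 over non-carrier arrays. Isl2 had 0.09 (SE 0.042, adjusted p 0.195). Of 5 astrocyte markers 1 passed, the glutamate transporter Slc1a2, which fell by 0.07 (SE 0.018, adjusted p from limma 0.0307), and Aqp4 had 0.06 (adjusted p 0.273). Both calls were lost with no block, that of Slc5a7 also with arrays centred on their medians (adjusted p 0.0602) and in 7 of 9 fits that left out a run. That of Slc1a2 was also lost with quantile normalization (adjusted p 0.0895), with 4 motor neuron lineage genes as covariates (adjusted p 0.0507) and in 5 of 9 fits that left out a run.

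Of 8 progenitor, 6 pluripotency, 7 mesenchyme or endothelium and 4 red blood cell genes 0 passed in limma, and 1, 2, 2 and 1 had an unadjusted p below 0.05, beside 20.7% of all genes. The largest differences were 0.08 for the proliferation gene Mki67 (adjusted p 0.161) and -0.03 for Notch1 (adjusted p 0.418). Of the pluripotency genes they were 0.12 for Pou5f1 (adjusted p 0.181) and 0.11 for Nanog (adjusted p 0.171). Col3a1 and Pecam1 each had 0.07 (adjusted p 0.233 and 0.192). Of the globins, Hbb.b1 had 0.16 (adjusted p 0.144) and Hba.a2 0.02 (adjusted p 0.771). The part of these markers in the differences of Hhip and Ptch1 was not tested.

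**Figure D3:**
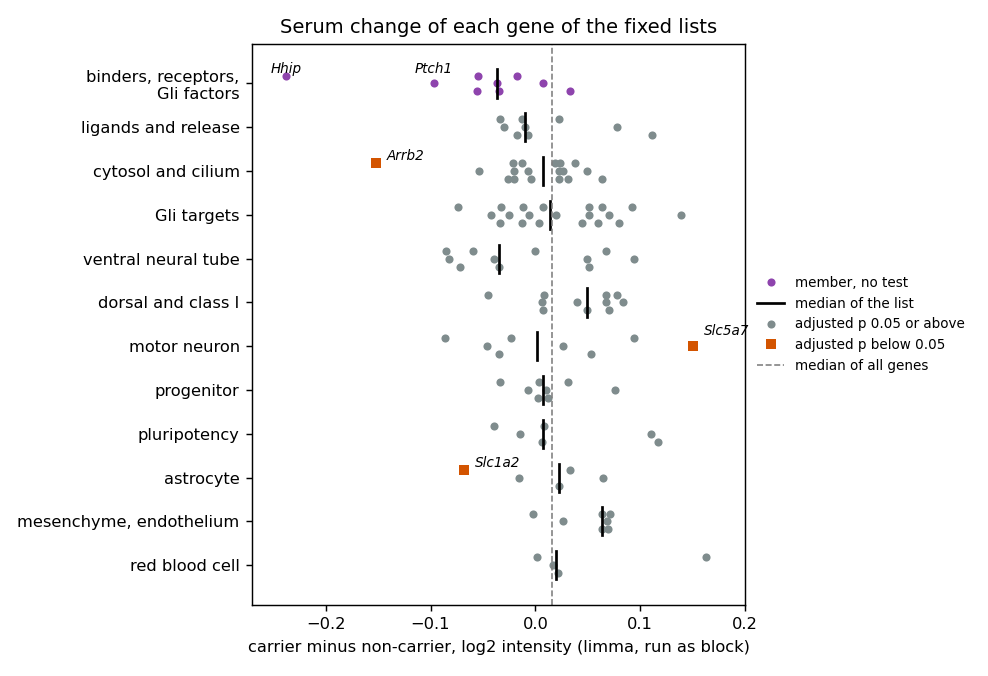
Carrier minus non-carrier difference in log2 intensity (x axis, from limma blocked by run) of each gene of the 12 lists (y axis), with a line at each list's median and a dashed line at the median of all genes. Hhip lies at -0.24 and Ptch1 at -0.10, and the 31 genes of both target lists lie between -0.09 and 0.14, with Olig2, the lowest of them, close to Ptch1 (1 gene stands in more than 1 list).

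The run moved the members far more than the serum did. In the 30 non-carrier arrays alone, which the choice of the set did not compare with one another, all 9 members differed between runs in limma's F test, as did 84.6% of all genes. In the carrier arrays all 9 did too, beside 82.3% of all genes. On the log2 scale Hhip had the widest range, from a mean of 6.97 in run A to 8.63 in run E (adjusted p from limma 1.04e-08). This was 7.41 times its SD within runs, and on that measure Cdon (9.48) and Boc (8.34) ranged further. Runs A, C, HB9MNs, motorneuron, B and D had means up to 7.72 and runs 10week, F and E from 8.19, and the gap of 0.47 between them was larger than the SD of 0.224 within runs. The neighbours A and C, HB9MNs and motorneuron, B and D, and 10week and F differed by less than that SD. The carrier arrays had their lowest and highest means of Hhip in the same runs, A and E.

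The target genes did not share that order. Ptch1 ranged from a mean of 10.68 in the run titled motorneuron to 11.20 in run D (adjusted p 4.77e-05), and 7 of 8 neighbouring pairs of runs differed by less than its SD of 0.102. Gli1 was lowest in run C (6.53) and highest in the run titled motorneuron (6.90, adjusted p 0.0026), where Ptch1 was lowest. All 8 neighbouring pairs of runs for Gli1 lay within its SD of 0.119, so only runs far apart in the order can be told from each other. Gli2 was highest in run D (7.24) and lowest in run 10week (6.58). Gli3, Cdon and Boc were each lowest in run HB9MNs and highest in run 10week, with means of 5.92 and 6.62 for Gli3, 8.16 and 8.66 for Cdon and 6.61 and 7.28 for Boc. The run accounted for 91.1% of the variance of Cdon, 89.8% of that of Hhip and 63.0% of that of Gli1 in these arrays, beside a median of 71.0% over all genes.

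The serum difference was also tested for a difference between runs. No member passed limma's interaction test (0 of 9, and 25 genes or 0.127% of all genes), and 1 member had an unadjusted p below 0.05, against 7.94% of all genes. That member was Hhip (adjusted p 0.385), for which run differences reached from -0.65 in run B to 0.24 in run C. A p above the threshold in runs of this size does not show that the runs acted alike.

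With the mean of each run and serum subtracted, the members could be compared over the 59 arrays in a way that used neither the serum contrast nor the runs. Of 36 pairs, 8 had a permutation p below 0.05 after Benjamini-Hochberg adjustment, all of them positive, and 11 pairs passed with Spearman's rho. The share of all gene pairs past that test was not computed. Of the 8, Gas1 and Boc had an r of 0.37, and 13.9% of all genes had a higher r to Gas1 and 8.31% to Boc. For the others at most 2.93% of all genes had a higher r to either gene of the pair. Gli1 and Gli2 were the pair most alike (r = 0.74, rho = 0.62, permutation p 2e-05 from 100000 draws within run and serum, adjusted permutation p 0.00072). Ptch1 went with Gli1 (r = 0.70, rho = 0.51, adjusted permutation p 0.00084) and Gli2 (r = 0.64, adjusted permutation p 0.010), but with Spearman's rho the pair of Ptch1 and Gli2 did not pass (rho = 0.38, adjusted permutation p 0.058). The transducer Smo and the coreceptor Boc went together (r = 0.68, rho = 0.61, adjusted permutation p 0.00084), and both went with Gli3 (r of 0.52 and 0.56).

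The r of Hhip with Ptch1 was 0.53 (rho = 0.48, adjusted permutation p 0.0040), with Gli1 0.39 (rho = 0.29, adjusted permutation p 0.073) and with Gli2 0.24 (rho = -0.0072, adjusted permutation p 0.26). The pair of Hhip and Gli1 depended on the scaling, since it passed with arrays centred on their medians (r = 0.44, adjusted permutation p 0.048), with quantile normalization (r = 0.50, adjusted permutation p 0.026) and with the first component of all genes removed (r = 0.55, adjusted permutation p 0.013, an alternative added after the values were seen). With Gli3 the r of Hhip was -0.21 and with Smo -0.11. Over all genes, the 5th and 95th percentiles of r were -0.35 and 0.37 for Hhip and -0.47 and 0.52 for Gli1. Leaving out the 2 arrays farthest from the median lowered the r of Ptch1 and Gli1 to 0.59, that of Gli1 and Gli2 to 0.69 and that of Hhip and Ptch1 to 0.47.

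Run C carried part of these relations. Without its 11 arrays the r of Ptch1 and Gli1 was 0.49 (adjusted permutation p 0.103), that of Ptch1 and Gli2 0.37 (adjusted p 0.335) and that of Hhip and Ptch1 0.26 (adjusted p 0.137), and 3 of 36 pairs passed. With run C parted into 2 blocks, an alternative added after the values were seen, 9 pairs passed and the r of Ptch1 and Gli1 was 0.65. Smo and Boc did not rest on that run (r = 0.68 without it). In the 8 runs of at least 6 arrays the r of Smo and Boc was positive in 7, that of Gli1 and Gli2 in 7, that of Hhip and Ptch1 in 7, that of Ptch1 and Gli1 in 4, and that of Ptch1 and Gli2 in 3.

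**Figure D4:**
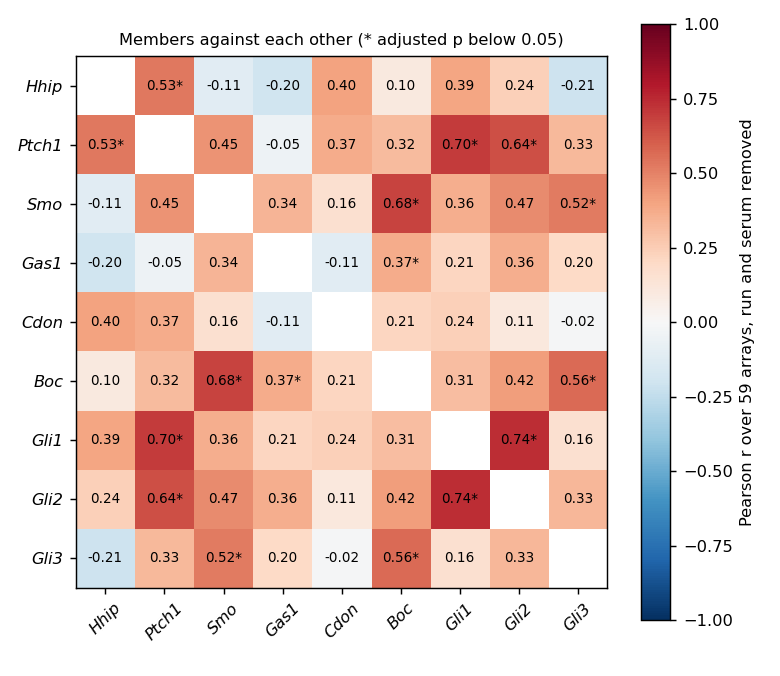
Pearson r between the members (both axes) over the 59 arrays after the mean of each run and serum was subtracted, with an asterisk where the adjusted permutation p was below 0.05. The highest values are 0.74 for Gli1 and Gli2 and 0.70 for Ptch1 and Gli1, whereas the row of Hhip reaches 0.53 and goes down to -0.21.

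The members were also set beside genes of the ventral neural tube, of motor neurons, of progenitors and of the pathway in the same centred values. Of 90 pairs, 18 passed an adjusted permutation p below 0.05, 16 of them positive, and 14 of the 18 lay beyond the 5th or 95th percentile of r between that member and all genes. Gli2 went with Nkx6.1 (r = 0.70, rho = 0.60, adjusted permutation p 0.00090) and with Olig2 (r = 0.55, rho = 0.52, adjusted permutation p 0.0072). Gli1 went with Olig2 (r = 0.58, rho = 0.55, adjusted permutation p 0.0027) and against Isl1, which marks cells that have left the cycle to become motor neurons (r = -0.48, rho = -0.45, adjusted permutation p 0.034). Ptch1 went with Nkx2.2 (r = 0.66, rho = 0.47, adjusted permutation p 0.0058). The coreceptor Boc went with Nkx6.1 (r = 0.56, rho = 0.54, adjusted permutation p 0.0066) and Nkx2.2 (r = 0.54, rho = 0.47, adjusted permutation p 0.015). The repressor Gli3 went with Foxa2 (r = 0.50, rho = 0.50, adjusted permutation p 0.015) and Nkx6.1 (r = 0.53, rho = 0.27, adjusted permutation p 0.038). Gas1 went with Olig2 (r = 0.51, rho = 0.50, adjusted permutation p 0.022), but 5.71% of all genes had a higher r to Gas1. Hhip went against Lhx3 (r = -0.52, rho = -0.41, adjusted permutation p 0.0043), and its r with Nkx2.2 was 0.35 (rho = 0.44, adjusted permutation p 0.037), with 5.87% of all genes higher. Without run C these r were 0.67 for Gli2 and Nkx6.1, 0.66 for Gli1 and Olig2, and 0.67 for Ptch1 and Nkx2.2. They were -0.42 for Hhip and Lhx3, and 0.17 for Hhip and Nkx2.2. For Boc they were 0.54 with Nkx6.1 and 0.65 with Nkx2.2, and for Gli3 0.60 with Foxa2 and 0.44 with Nkx6.1.

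The genes most like Hhip were of another kind. Over the 59 centred arrays, Pycr1, an enzyme of proline synthesis, had an r of 0.88 to Hhip, and Mthfd1l, a mitochondrial enzyme of folate metabolism, had 0.80. Ubr2 (0.80), Adam9 (0.79) and Ankrd11 (0.77) came next. All 5 stayed above 0.72 without run C, at 0.84 for Pycr1 and 0.80 for Mthfd1l. Both enzymes are known among the genes that cells induce through the factor ATF4 when amino acids are short, so 20 genes of that response were listed after these names were seen. All 20 had a positive r to Hhip, from 0.13 for Phgdh to 0.88 for Pycr1, with a median of 0.65, against -0.03 over all genes. Without run C the median was 0.67.

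No other member stood as close to that response. The median r to the same 20 genes was 0.32 for Gli1, 0.25 for Cdon, 0.21 for Ptch1, 0.14 for Gli2, -0.18 for Smo and -0.32 for Gli3, and without run C those of Ptch1 and Gli1 were 0.01 and 0.15. The 20 genes were also lower with carrier serum, in 20 of 20 cases, with a median difference of -0.25 on the log2 scale and a range from -0.46 to -0.09, beside -0.24 for Hhip and -0.24 for Pycr1. The list was chosen with these values in view and supports nothing by itself, and whether the amino acid genes and Hhip share a cause was not tested.

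**Figure D5:**
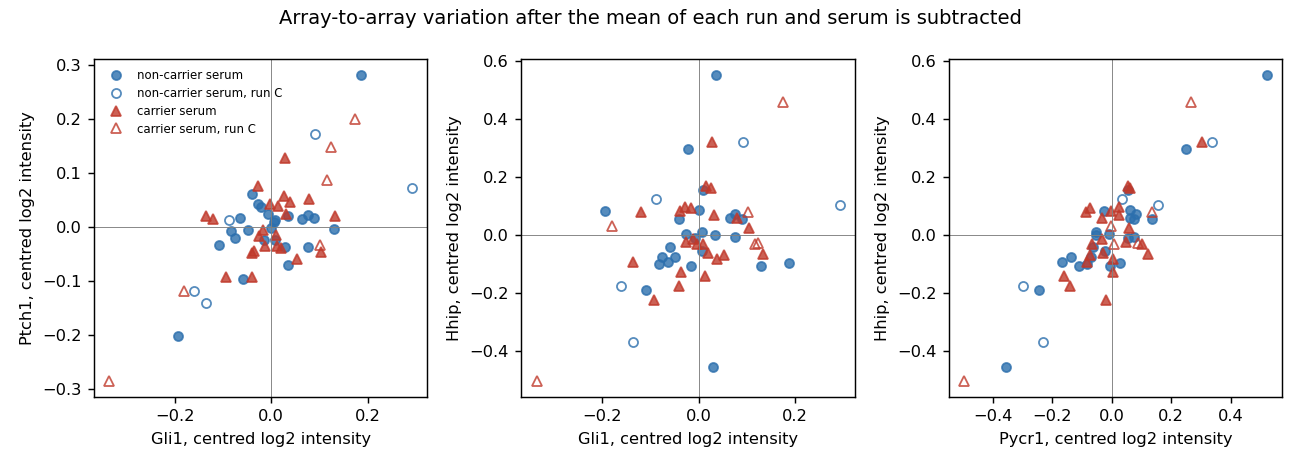
Centred log2 intensities of 59 arrays, with Ptch1 against Gli1 (left), Hhip against Gli1 (middle) and Hhip against Pycr1 (right). Circles are non-carrier and triangles carrier arrays, and open symbols are run C. The points lie along a line for Hhip and Pycr1 (r = 0.88), and less so for Ptch1 and Gli1 (r = 0.70) and Hhip and Gli1 (r = 0.39).

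The window of Pycr1 (chr11:120643749-120643998, minus strand) is shown beside that of Hhip because no gene of the table was closer to Hhip. Capitals again mark a motif.
Pycr1: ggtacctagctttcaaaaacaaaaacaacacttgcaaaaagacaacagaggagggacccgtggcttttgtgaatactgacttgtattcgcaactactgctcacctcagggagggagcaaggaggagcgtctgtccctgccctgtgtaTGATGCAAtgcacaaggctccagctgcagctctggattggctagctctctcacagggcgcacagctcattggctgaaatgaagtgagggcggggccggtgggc

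It held TGATGCAA, the kind of site known for ATF4 with a C/EBP partner, at position -103 from the start, as did 0.791% of all windows. The window of Hhip held TGACGTCA, the palindromic site known for CREB and ATF factors, at position -75 from the start, as did 1.55% of windows. The shorter TGACGT, which lies within TGACGTCA, was found in 6.47% of windows, and in 1 of 7 member windows, that of Hhip. These motifs were chosen after the likeness of Hhip and Pycr1 was seen, were searched on both strands, and are a description of these letters.

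The genes most like Ptch1 and Gli1 were not Hedgehog genes either. For Ptch1 they were Cblb (r = 0.85), Setd5 (0.81), Smarca2 (0.81), R3hdm1 (0.81) and Ylpm1 (0.81), and without run C they lay between 0.71 and 0.85. Cblb is a ubiquitin ligase, and Setd5 and Smarca2 act on chromatin. For Gli1 they were Cln6 (0.81), Fam38a (0.78), Abcc10 (0.77), Muc2 (0.77) and Atp4a (0.77), of which Muc2 had 0.41 without run C. Fam38a is an older symbol of the mechanically gated channel Piezo1. Gli2 ranked near the top for Gli1, since only 0.0612% of genes had a higher r than 0.74.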

How the data were processed

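Gene expression of embryoid bodies exposed to mouse serum was measured on Affymetrix mouse exon arrays, 1 array per serum sample. The authors deposited unlogged RMA intensities, made with aroma.affymetrix as the mean over the exons of each gene, after outlier arrays had been removed. The labels also name Affymetrix Expression Console, and the genome build is not given in the sources used here. RMA on arrays has no read depth, and the number of arrays limits the precision. 0 columns of other samples were present. Per the methods, serum samples were assayed in groups that shared a batch of differentiated cells, so p-values measure the spread between serum samples on shared batches. Whether each serum sample came from a different mouse is not given array by array.

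Intensities were taken to log2 with no pseudocount and no filter on dim genes. Carrier arrays were compared with non-carrier arrays in limma 3.58.1 (R 4.3.3), run as a block, over all 59 arrays and 19613 genes, with p-values adjusted over the whole table (Benjamini-Hochberg, called below 0.05). Differences between runs (30 non-carrier arrays) and between the serum effects of runs were tested with limma's F test. Correlations used log2 values minus the mean of each run and serum, with 100000 two-sided permutations of arrays within run and serum. The steps were tested on simulated data. Members and lists were chosen with earlier results of these data known. The text names the 9 members, of each other list the genes past the adjusted p and the 2 with the largest change, the 4 genes the study uses against batches, and the 5 genes most like Hhip, Ptch1 and Gli1. Scube2, Sufu, Sfrp1, Ccnd1, Ccnd2, Mycn, Nkx6.1, Nkx2.2, Foxa2, Pax6 and the amino acid genes were named after their values were seen. The ventral, motor neuron and progenitor genes set beside the members were also picked after their values were seen. The 7 list symbols without a row were not analysed here, and 1 gene of the lists is counted in them but not reported here.

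Alternatives left out the block, added the 4 genes as covariates, parted run C, used replicate numbers as blocks, changed the scaling, pseudocount, variance model or weights, left out dim genes, and left out arrays or 1 run at a time. Of the 8 pairs of arrays that share a run and a number, 1 had deviations that correlated above 0.1 (r from -0.13 to 0.33 over all genes). The numbers were therefore not used as pairs in the main fit. Arrays of unlike number were not compared, so this cannot settle whether the numbers pair the arrays.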

Additional observations from a re-analysis of the deposited data

Results flagged for a closer look

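In the run titled motorneuron, non-carrier array 1 stood apart from the other 3 non-carrier arrays for 2 members. Its Smo log2 intensity was 9.70, against 9.28 to 9.33 in the others. Its Boc log2 intensity was 6.99, against 6.69 to 6.74. The same array was also the highest of the 4 for Ptch1 (10.96), Gli1 (7.09), Gli2 (7.46) and Gli3 (6.40), and the lowest for Hhip (7.15). The gap to the nearest array was compared with the whole range by Dixon's test in 36 groups of 4 to 6 arrays, of which 2 passed, and chance alone passes about 5% of groups.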

How the results depend on the processing

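The median change of the 9 members stayed below 0 under every alternative run, from -0.046 to -0.0092, and with each run left out from -0.052 to -0.031. Hhip, Ptch1, Gli1, Gli2 and Cdon stayed below 0 and Smo above 0 throughout, and Gli3, Gas1 and Boc changed sign under at least 1 alternative. Members past the adjusted p numbered 2, but 0 with no block, 1 with quantile normalization, 4 with array weights, and 0 to 3 with each run left out. Genes of the 5 pathway lists past it numbered 1, but 0 with no block, 24 with the 4 batch genes Olig2, Mnx1, Isl1, Lhx3 as covariates (when 6126 genes passed in all), 3 with run C parted into 2 blocks, 2 with arrays centred on their medians, 2 without dim genes, 2 with an intensity trend, 10 with array weights, 2 without the array of lowest correlation in each group, 3 without non-carrier array 4 alone (added after the values were seen), and 0 to 7 with each run left out. Gli and ventral targets past it numbered 0, but 10 with the covariates, 1 with run C parted (Sfrp1), 1 with centring, without those 2 arrays or without non-carrier array 4 (Olig2 each time), 5 with array weights, and 0 to 3 with each run left out. With the replicate block, 3 pathway genes passed (Arrb2, Olig2 and Stk36), of which 1 was a target, and 2 members were past it. Over all genes 2.33% passed in the main fit, 0% with no block, 31.2% with the covariates, 3.3% with run C parted and 2.28% with centring. The share was 6.68% without dim genes, 2.62% with an intensity trend or the replicate block, and 14.3% with array weights. It was 2.57% without those 2 arrays, 2.87% without non-carrier array 4, and 0.54% to 8.16% with each run left out. These counts of members support nothing, since the members were chosen on this contrast. In the carrier arrays alone 4 of 36 member pairs passed, and with each run left out 3 to 9 did. Without dim genes 5 members were left, and all 5 differed between runs. The cause of these shifts was not tested. The number of arrays limits what can be told, with standard errors of the members from 0.017 to 0.063 on the log2 scale.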
